A study of Homo sapiens with 6 samples.

Results

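The ATP-binding cassette (ABC) transporter genes described here are the protein-coding genes of the deposited count table whose symbol reads ABC, a letter from A to G and a number. There are 45 of them among 19910 protein-coding genes and 58440 gene identifiers in all. By subfamily they are 12 ABCA, 9 ABCB, 11 ABCC, 4 ABCD, 1 ABCE, 3 ABCF and 5 ABCG genes. The samples are K562 cells, an established human chronic myeloid leukaemia line that carries the BCR-ABL1 fusion. Total RNA was sequenced from 3 libraries labelled IRAIN over-expression and from 3 libraries labelled wild type, whose columns in the count table are named vector. They are called controls here, by their column number. IRAIN is a long noncoding RNA from the locus of IGF1R, the insulin-like growth factor receptor. The study's stated question is drug resistance, and no library is labelled as treated with a drug. The labels do not describe the construct or say whether the cells are 1 clone or a pool.

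ABC proteins bind and split ATP at a pair of nucleotide-binding domains. In most of them this drives lipids, peptides, metabolites or drugs across a membrane. The ABCA proteins mainly move lipids, the ABCC proteins include the multidrug resistance-associated pumps that export drugs and glutathione conjugates, and ABCB1 and ABCG2 are the best known pumps of drug-resistant leukaemia cells. The ABCD proteins carry fatty acids into peroxisomes or cobalamin out of lysosomes, several ABCB proteins sit in mitochondria, and the ABCE and ABCF proteins have no membrane part and act at the ribosome.

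Each library held 11558983 to 13303139 counts, and the 45 genes took 0.190% to 0.195% of the counts of an over-expression library and 0.193% to 0.195% of a control library. IRAIN was counted 97, 94 and 106 times in over-expression libraries, against 0, 0 and 1 times in controls. The 10 erythroid and blast genes used to check the line summed to 698 to 739 CPM in over-expression cells and 654 to 676 CPM in controls (CPM is the count scaled to the normalized library size). HBE1 was the lowest of them, at 1.09 CPM in over-expression cells and 1.32 CPM in controls. Of the 17 genes of other cell types, those above 1 CPM in both groups included EPCAM, COL1A2, FCGR3B, CD3D and COL1A1, while ALB did so in controls alone (0.081 CPM in over-expression cells and 1.24 CPM in controls) and CSF3R in over-expression cells alone (1.30 and 0.359 CPM). MS4A1 had no count. Separate cultures are not stated for the replicates; p-values therefore describe the spread of these 6 libraries, which may be technical spread. In bulk RNA, fewer cells that express a gene and less RNA per cell cannot be told apart.

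K562 expressed a small number of ABC genes strongly and left many near the detection limit. Of the 45 genes, 19 averaged at least 20 CPM in 1 of the groups, 10 lay between 1 and 20 CPM and 16 stayed under 1 CPM in both groups. Per kb of exonic length, which allows genes to be compared, the 5 highest levels were the same in both groups. They were those of ABCF1 (36.1 CPM per kb in over-expression cells and 42.4 in controls), ABCB10 (32.0 and 34.5), ABCC1 (23.9 and 26.3), ABCA7 (20.6 and 23.5) and ABCE1 (20.1 and 22.8). This set joins 2 ribosome-acting proteins, a mitochondrial transporter, a drug and conjugate pump and a phospholipid transporter. The order rests on the compared counts, which leave out part of the own-strand reads of ABCE1, ABCB9 and ABCC11, as described below. ABCB6 and ABCF2 share 54.7% and 45.8% of their exonic length with another gene on the same strand. Their levels per kb are not corrected for this. The whole ABCG subfamily was nearly silent, with 42 counts for all 5 genes together in over-expression cells and 27 in controls.

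**Figure D1:**
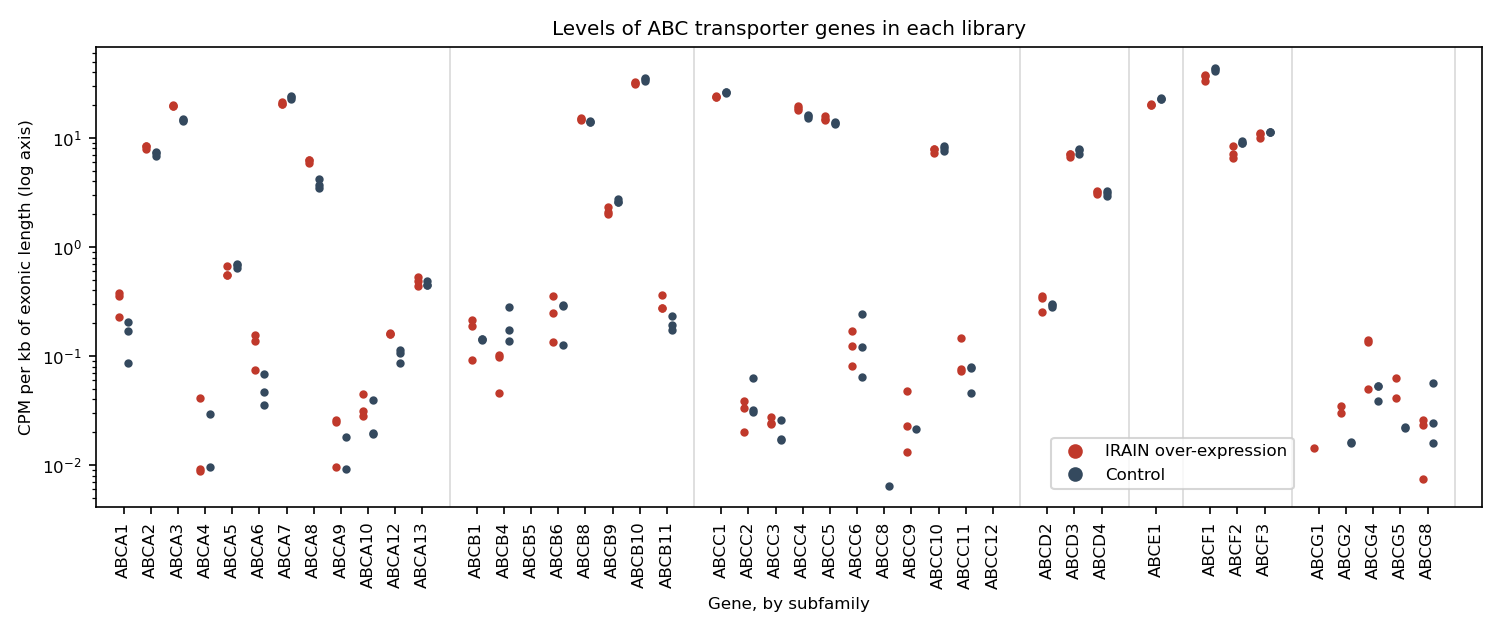
CPM per kb of exonic length (log axis) for ABC genes, by subfamily. Points are single libraries, over-expression left of control; libraries with 0 counts cannot be drawn on this axis, and ABCB5 and ABCC12 have no point. ABCF1 is highest in both groups, at 36.1 and 42.4 CPM per kb, and the ABCG genes lie near the bottom.

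Of the 45 genes, 30 had enough counts for the test, which is edgeR's quasi-likelihood test with an adjusted p of 0.05 as its threshold. In the over-expression cells 8 of them rose and 8 fell (26.7% each), 14 did not pass and 15 were not tested. Over all 18380 genes tested, 39.3% passed, 20.3% higher and 18.9% lower. Of the 12465 protein-coding genes among them 48.1% passed, 24.8% higher and 23.4% lower, so the share among the ABC genes was near this background. The median log2 fold change was 0.05 over the 30 genes and -0.00103 over all genes tested. For 22 of the 30 the groups had separate CPM ranges, 12 higher and 10 lower, where 47.5% of all genes tested and 55.5% of the protein-coding ones had such ranges. Most changes were small: 9 of the 16 were under 1.2-fold, 3 lay between 1.2-fold and 1.5-fold, and 4 were larger. Over all genes that passed, 26.2% changed by at least 1.5-fold, a share near that of the ABC genes. With a correction for GC content and length, added after seeing the data, the split was 6 higher and 10 lower. Log2 fold changes below are over-expression over control, with their SE and the adjusted p of edgeR's test.

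**Figure D2:**
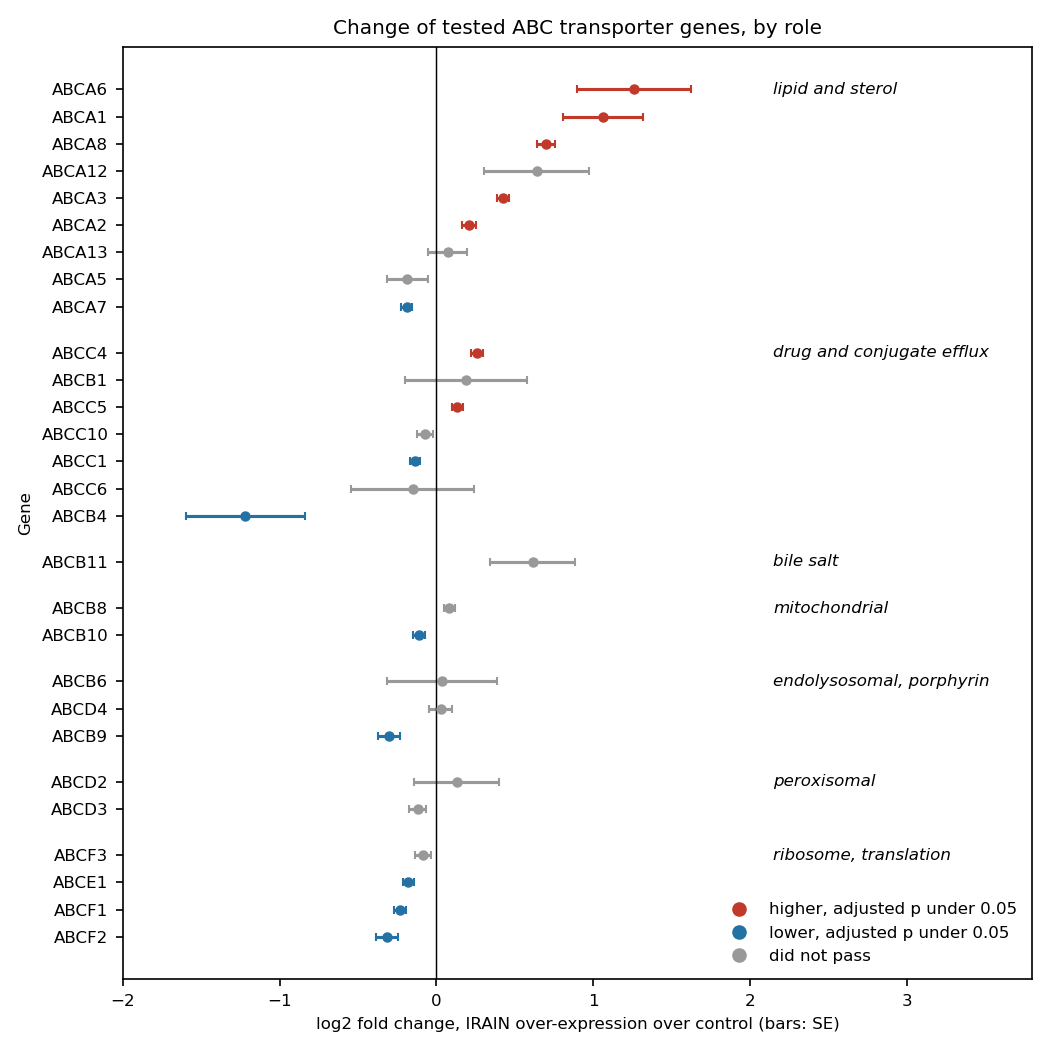
Log2 fold change of tested ABC genes (over-expression over control, bars SE), grouped by role. Red points are higher, blue points lower at an adjusted p of 0.05 and grey points did not pass. The lipid group, which leaves out ABCB4, runs from -0.19 (ABCA7) to 1.26 (ABCA6), and all 4 ribosome-acting genes lie left of 0.

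Of 16 lipid and sterol transporter genes (12 ABCA and 4 ABCG), 9 could be tested, of which 5 rose and 1 fell, with a median log2 fold change of 0.43. Among protein-coding genes, 24.8% were higher and 23.4% lower, and the difference from them was not tested. Of the 5, ABCA1 and ABCA6 rest on few counts and ABCA2 did not keep its call after the GC and length correction. The CPM of all 16 lipid and sterol genes summed to 505 to 530 in over-expression libraries and 455 to 460 in controls.

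ABCA8, a transporter linked to sterol export and high-density lipoprotein (GRCh38 chromosome 17, 68867292 to 68955392, minus strand), had 797, 845 and 934 counts in over-expression libraries and 564, 483 and 503 in controls. Every over-expression library lay above every control. It rose, with a log2 fold change of 0.70 ± 0.056 (adjusted p = 2.0e-16), with means of 69.2 ± 2.42 CPM in over-expression cells and 42.6 ± 4.04 CPM in controls (SD, n = 3 each).

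ABCA3, which loads surfactant lipids into lamellar bodies of lung cells (chromosome 16, 2275881 to 2340746, minus strand), had 1793, 1928 and 2006 counts in over-expression libraries and 1344, 1435 and 1386 in controls. Its groups stood well apart, at 154 ± 3.24 CPM in over-expression cells and 114 ± 2.11 CPM in controls (SD, n = 3 each). The log2 fold change was 0.43 ± 0.037 (adjusted p = 4.5e-15).

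ABCA1, the exporter of cholesterol and phospholipid to apolipoprotein A-I (chromosome 9, 104781002 to 104928237, minus strand), had 49, 33 and 53 counts in over-expression libraries and 23, 12 and 28 in controls. The lowest over-expression library was only slightly above the highest control in CPM (2.59 and 2.32). The log2 fold change was 1.06 ± 0.25 (adjusted p = 0.00045), at 3.64 ± 0.919 CPM in over-expression cells and 1.74 ± 0.693 CPM in controls (SD, n = 3 each). In the 1 library with counts by strand, ABCA1 had 25 reads on its own strand and 9 opposite.

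ABCA6, a less known member (chromosome 17, 69078702 to 69141888, minus strand), had 25, 25 and 14 counts in over-expression libraries and 6, 12 and 8 in controls. Its log2 fold change was 1.26 ± 0.36 (adjusted p = 0.0036), from few reads and with a wide spread among the over-expression libraries. With DESeq2 the call was lost (adjusted p = 0.060).

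ABCA2, a lysosomal lipid transporter, rose by 0.21 ± 0.044 on the log2 scale (adjusted p = 9.6e-05), at 95.0 ± 2.71 CPM in over-expression cells and 82.3 ± 3.65 CPM in controls (SD, n = 3 each). This call was lost after the GC and length correction (0.07, adjusted p = 0.16). ABCA7, a phospholipid transporter known for phagocytosis and as an Alzheimer risk gene, went the other way. It fell to 173 ± 4.80 CPM in over-expression cells, against 197 ± 6.83 CPM in controls (SD, n = 3 each; log2 fold change -0.19 ± 0.034, adjusted p = 5.5e-06).

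ABCA5, ABCA12 and ABCA13 did not pass. ABCA12, which supplies skin barrier lipids, had 17, 19 and 20 counts in over-expression libraries and 12, 10 and 13 in controls, without overlap between the groups (log2 fold change 0.64 ± 0.33, adjusted p = 0.12). In the 1 library with counts by strand, ABCA12 had 9 reads on its own strand and 10 opposite. ABCA5 stood at -0.18 ± 0.13 and ABCA13 at 0.07 ± 0.12 on the log2 scale. Both averaged 7.77 to 9.30 CPM in either group, and the libraries of the groups overlapped.

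Promoter sequence is shown for the genes that changed by at least 1.2-fold and have exactly 1 entry in the RefSeq promoter table (GRCh38.p14), which are 4 of 7 such genes. The lines give the 250 bases before the RefSeq start, 5′ to 3′ on the gene's strand. Capitals mark matches, on either strand, to the E-box CACGTG, the GC box GGGCGG, the CCAAT box, the TATA box TATAAA, the GATA site AGATAA or the core of the antioxidant element TGACNNNGC.
ABCA1: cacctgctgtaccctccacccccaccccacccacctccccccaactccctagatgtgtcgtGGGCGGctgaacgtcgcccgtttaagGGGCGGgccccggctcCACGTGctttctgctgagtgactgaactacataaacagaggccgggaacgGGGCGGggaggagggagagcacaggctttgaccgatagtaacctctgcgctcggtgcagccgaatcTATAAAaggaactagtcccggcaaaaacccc
ABCA3: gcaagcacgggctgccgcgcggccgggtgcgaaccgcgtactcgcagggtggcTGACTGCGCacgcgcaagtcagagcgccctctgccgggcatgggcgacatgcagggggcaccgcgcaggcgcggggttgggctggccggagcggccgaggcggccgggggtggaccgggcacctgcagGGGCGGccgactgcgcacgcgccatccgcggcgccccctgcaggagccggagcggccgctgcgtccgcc
ABCA6: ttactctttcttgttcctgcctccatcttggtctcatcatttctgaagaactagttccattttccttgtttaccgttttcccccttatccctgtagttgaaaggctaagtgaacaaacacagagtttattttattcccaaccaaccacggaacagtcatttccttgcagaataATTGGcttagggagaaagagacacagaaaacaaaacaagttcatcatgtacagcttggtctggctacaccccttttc
ABCF2: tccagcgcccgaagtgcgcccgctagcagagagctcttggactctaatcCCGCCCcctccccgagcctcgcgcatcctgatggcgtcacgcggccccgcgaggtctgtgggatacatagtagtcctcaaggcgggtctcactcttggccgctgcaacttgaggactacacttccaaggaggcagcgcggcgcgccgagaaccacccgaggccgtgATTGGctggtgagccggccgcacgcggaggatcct
The windows are chr9:104928156-104928405 for ABCA1, chr16:2340729-2340978 for ABCA3, chr17:69141896-69142145 for ABCA6 and chr7:151227206-151227455 for ABCF2, all on the minus strand. ABCF2, a gene that fell, is described with the ribosome-acting genes.

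These windows differed in their base composition and motifs. ABCA1 held a TATA box 31 to 26 bases before the start, an E-box 147 to 142 bases before it and 3 GC boxes. ABCA3 was 79.2% G or C, higher than in 95.8% of all promoters, with 1 GC box and 1 antioxidant element core. ABCA6 was 40.8% G or C, where the median of all promoters is 58.0%, and held a CCAAT box, read as ATTGG on the printed strand. ABCF2 held 1 GC box and a CCAAT box 35 to 31 bases before the start. No window held an AGATAA match. Among 34788 distinct windows of the same length, 6.31% held the E-box, 42.6% the GC box, 32.0% the CCAAT box, 10.8% the TATA box, 9.21% the GATA site and 10.9% the antioxidant core. The 35 ABC genes with an entry had 53 windows, of which 9 held the E-box, 25 the GC box, 11 the CCAAT box, 6 the TATA box, 5 the GATA site and 9 the antioxidant core. These 53 were not reduced to distinct windows, and a gene can have several, so the counts are not like those of the distinct windows. The difference was not tested. A match is a description of letters and not a site of binding.

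The drug and conjugate efflux genes did not move one way. Of 12, 7 could be tested, of which 2 rose and 2 fell. Over the protein-coding genes tested, 24.8% were higher and 23.4% lower, and the difference from them was not tested. The CPM of all 12 summed to 578 to 586 in over-expression libraries and 555 to 566 in controls. ABCC1, ABCC4, ABCC5 and ABCC10 held 99.3% of the counts of this group in over-expression cells and 99.2% in controls. The balance between them shifted: ABCC1 took 31.1% of these counts in over-expression cells and 35.4% in controls, ABCC4 28.0% and 24.3%, and ABCC5 29.6% and 27.9%.

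ABCC4, which exports cyclic nucleotides, nucleoside drugs and prostaglandins, had 1763, 2083 and 2228 counts in over-expression libraries and 1628, 1735 and 1597 in controls. All over-expression libraries were higher in CPM than all controls, at 163 ± 7.28 CPM in over-expression cells and 136 ± 4.10 CPM in controls (SD, n = 3 each). The log2 fold change was 0.26 ± 0.037 (adjusted p = 4.3e-08).

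ABCC5, an exporter of cyclic nucleotides and organic anions, had 2049, 2146 and 2209 counts in over-expression libraries and 1928, 1929 and 1851 in controls. It rose by 0.13 ± 0.036 on the log2 scale (adjusted p = 0.0017), a 1.10-fold difference with no overlap of the CPM ranges. After the GC and length correction it stood at 0.08 (adjusted p = 0.052) and no longer passed.

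ABCC1, the pump of glutathione conjugates and anthracyclines known as MRP1, had 2088, 2308 and 2342 counts in over-expression libraries and 2406, 2476 and 2364 in controls. It was at 181 ± 2.75 CPM in over-expression cells and 199 ± 2.69 CPM in controls (SD, n = 3 each), lower in all 3 over-expression libraries. It fell by 0.14 ± 0.033 on the log2 scale (adjusted p = 0.00049). Its call held under all alternatives run except the test against a 1.2-fold change, with log2 fold changes of -0.22 to -0.12.

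ABCC10, a pump known for taxanes, had 724, 817 and 766 counts in over-expression libraries and 742, 801 and 825 in controls. The groups overlapped (log2 fold change -0.07 ± 0.051, adjusted p = 0.29). It passed the test only after the GC and length correction (-0.14, adjusted p = 0.016).

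The pumps best known from drug-resistant leukaemia were close to absent. ABCB1, or P-glycoprotein, had 14, 14 and 7 counts in over-expression libraries and 10, 10 and 10 in controls, and the groups overlapped. Its ratio of pooled count shares was 1.11, with an exact 95% interval of 0.664 to 1.88 for counting error only. ABCG2, the breast cancer resistance protein, had 2, 0 and 2 counts in over-expression libraries and 0, 1 and 1 in controls. The ratio of shares was 1.91 with an interval of 0.273 to 21.1, so no difference could be detected at this depth. ABCC2, the hepatic form of the conjugate pump, had 3, 2 and 4 counts in over-expression libraries and 3, 3 and 6 in controls. ABCC3 had 3, 3 and 3 against 3, 2 and 2 in controls. Neither was tested. ABCC6, a gene known for its role in calcification, had 7, 12 and 17 counts in over-expression libraries and 22, 6 and 11 in controls, with overlap (adjusted p = 0.80). Its pseudogenes ABCC6P1 and ABCC6P2 are near copies, so reads may be split between them. ABCC11 held 27 counts in over-expression cells and 18 in controls, and ABCC12 had none.

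ABCB4, close in sequence to ABCB1 but known as a flippase of phosphatidylcholine into bile, fell. It is counted here with the drug and conjugate efflux genes, so its fall is not part of the lipid and sterol group. It had 4, 10 and 10 counts in over-expression libraries and 16, 13 and 26 in controls, with no overlap in CPM. The log2 fold change was -1.22 ± 0.38 (adjusted p = 0.0074). The call was lost without over-expression replicate 1 (-0.96, adjusted p = 0.066), without the control column numbered 3 (-0.88, adjusted p = 0.13) and with DESeq2 (adjusted p = 0.093). ABCB11, the bile salt export pump of hepatocytes, had 24, 27 and 37 counts in over-expression libraries and 18, 22 and 16 in controls. The ranges did not overlap, and the test was not passed (0.61 ± 0.27, adjusted p = 0.066).

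**Figure D3:**
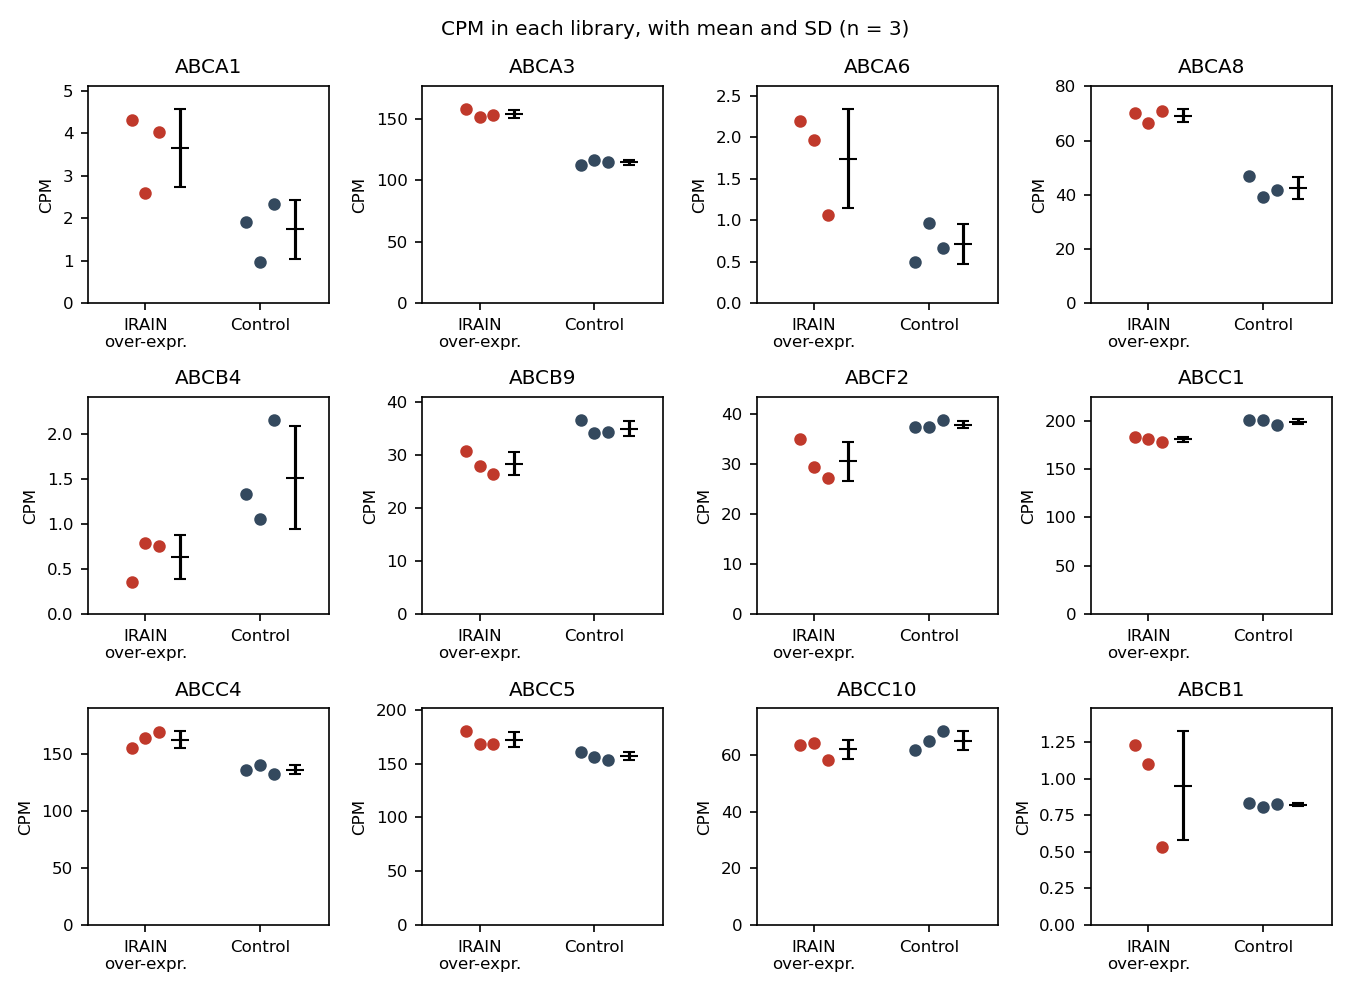
CPM in each library for the 7 genes that changed by at least 1.2-fold and for 5 drug efflux genes; over-expression is left of control, and bars show mean and SD (n = 3). ABCA3 and ABCA8 separate widely, ABCC1 and ABCC5 narrowly, and ABCB1 overlaps at under 2 CPM.

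Mitochondrial ABC transporters were abundant in both groups. ABCB10, an inner membrane protein known in mouse to be induced by GATA1 and to serve heme synthesis, stood at 136 ± 2.87 CPM in over-expression cells and 147 ± 5.14 CPM in controls (SD, n = 3 each). It fell by 0.11 ± 0.037 (adjusted p = 0.012). That call was lost without over-expression replicate 2 (adjusted p = 0.079), without the control column numbered 2 (adjusted p = 0.094) and with DESeq2 (adjusted p = 0.068). ABCB10 also has processed copies in the genome, so its count is uncertain to that extent. ABCB8, also an inner membrane protein tied to iron export, did not pass (0.08 ± 0.037, adjusted p = 0.066), although its CPM ranges did not overlap.

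Among the endolysosomal and porphyrin transporters 1 of 3 changed, beside 48.1% of the protein-coding genes tested. ABCB9, a lysosomal peptide transporter, had 351, 356 and 348 counts in over-expression libraries and 439, 422 and 414 in controls. It fell by 0.31 ± 0.070 (adjusted p = 0.00028), with all 3 over-expression libraries below the controls. In the 1 library with counts by strand, 55.1% of its stranded reads lay on the opposite strand, and its exons overlap those of OGFOD2 (12.5% of its exonic length), ARL6IP4 and AC026362.1 (20.7%) there. In that library ABCB9 had 385 reads on its own strand and 473 opposite, and its compared count was 356, so most of these reads are not in the compared count. ABCD4, which works in lysosomal cobalamin export, stood at 27.7 ± 0.982 CPM in over-expression cells and 27.2 ± 1.37 CPM in controls (SD, n = 3 each) and did not pass (adjusted p = 0.80).

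ABCB6, a porphyrin transporter that carries the Langereis blood group, had 21, 9 and 17 counts in over-expression libraries and 8, 19 and 18 in controls (adjusted p = 0.95). It shares 54.7% of its exonic length with the annotated gene AC068946.2 on the same strand, which itself was counted 7 times in over-expression cells and 0 times in controls. ABCF2 shares 45.8% of its exonic length with AC021097.2, which had no count. In the library with counts by strand, 1851919 reads lay in more than 1 gene with strand ignored. How many of them belong to ABCB6 or ABCF2 was not tested.

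Neither of the peroxisomal transporters ABCD3 and ABCD2 passed the test. ABCD3, the abundant membrane protein PMP70, had 579, 682 and 717 counts in over-expression libraries and 719, 723 and 658 in controls (-0.12 ± 0.054, adjusted p = 0.067), with the lowest control only just above the highest over-expression library in CPM. It passed without the control column numbered 3 (-0.16, adjusted p = 0.032). ABCD2, a transporter of very long chain fatty acids, had under 2 CPM on average in both groups (0.13 ± 0.27, adjusted p = 0.75).

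The 4 genes without a membrane domain all had lower means in the over-expression cells, and 3 of them fell. Among protein-coding genes tested, 24.8% were higher and 23.4% lower, and the difference from them was not tested. The CPM of these 4 genes summed to 359 to 386 in over-expression libraries and 422 to 441 in controls. ABCF1, which binds the initiation factor eIF2 and ribosomes, had 1955, 2131 and 1979 counts in over-expression libraries and 2215, 2373 and 2389 in controls. The groups did not overlap in CPM (log2 fold change -0.23 ± 0.037, adjusted p = 4.7e-07).

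ABCE1, which splits ribosomes after termination so that they can be used again, had 1443, 1606 and 1648 counts in over-expression libraries and 1696, 1745 and 1754 in controls. At 126 ± 0.768 CPM in over-expression cells and 143 ± 2.30 CPM in controls (SD, n = 3 each), it fell in all 3 over-expression libraries (-0.18 ± 0.037, adjusted p = 5.2e-05). In the library with counts by strand, ABCE1 had 2076 reads on its own strand and 136 opposite, against a compared count of 1606. Part of its own-strand reads are therefore not in the compared count. Exons of ANAPC10 (7.49% of its exonic length) and OTUD4 (4.41%) overlap it on the opposite strand. ABCF2 had 398, 375 and 359 counts in over-expression libraries and 449, 463 and 468 in controls, a log2 fold change of -0.32 ± 0.071 (adjusted p = 0.00019). ABCF3, whose yeast relative GCN20 acts with GCN1 in amino acid sensing, had 596, 727 and 742 counts in over-expression libraries and 701, 727 and 712 in controls and did not pass (-0.09 ± 0.052, adjusted p = 0.20). After the GC and length correction it passed (-0.14, adjusted p = 0.026).

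The remaining genes were too low to test. ABCA4, the retinal lipid transporter, ABCA9 and ABCA10 were counted 6, 7 and 11 times in over-expression cells and 4, 3 and 8 times in controls. The sulfonylurea receptor genes ABCC8 and ABCC9, which form potassium channels with KCNJ11 and KCNJ8, had 0 and 12 counts in over-expression cells and 1 and 3 in controls. ABCG1, a cholesterol exporter of macrophages, had 1 count in over-expression cells and 0 in controls. ABCG4, its neuronal relative, had 10, 4 and 11 counts in over-expression libraries and 4, 3 and 4 in controls. Its ratio of pooled shares was 2.17, with an exact 95% interval of 1.03 to 4.88 for counting error only, and the groups overlapped. ABCG5 and ABCG8, the sterol pump of gut and liver, had 5 and 7 counts in over-expression cells and 2 and 12 in controls. ABCB5, known from melanoma, and ABCC12 had no count in any library, which allows up to 0.0805 CPM over the over-expression group and 0.0824 CPM over the controls (3 counts over a group, counting error only).

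Several members are neighbours in the genome and differed from each other. On chromosome 17, ABCA8, ABCA9, ABCA6, ABCA10 and ABCA5 follow each other on the minus strand between 68867292 and 69327244. In this row ABCA8 and ABCA6 rose, ABCA5 did not pass, and ABCA9 and ABCA10 between them were too low to test. ABCB4 and ABCB1 lie 23.2 kb apart on chromosome 7, where ABCB4 fell and ABCB1 did not pass. ABCC1 lies 5.85 kb from ABCC6 on chromosome 16, and their control levels were 26.3 and 0.142 CPM per kb. The difference in change between neighbours was not tested.

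Genes that work with the ABC proteins were read from lists chosen with earlier results of these data known. For comparison, 20.3% of all genes tested were higher and 18.9% lower. Among the protein-coding genes tested, 24.8% were higher and 23.4% lower. No list was tested against either background. Of 20 drug uptake carriers 9 could be tested, of which 3 rose (33.3%) and 4 fell (44.4%). SLCO1A2, an organic anion carrier, rose by 0.83 ± 0.085, and SLC29A1, which takes up nucleosides and cytarabine, by 0.24 ± 0.041. SLC19A1, the carrier of folate and methotrexate, fell to 55.2 ± 3.13 CPM in over-expression cells, against 89.1 ± 2.19 CPM in controls (SD, n = 3 each; -0.69 ± 0.048). In the library with counts by strand, SLC19A1 had 739 reads on its own strand and 662 opposite, against a compared count of 748. The compared count ignores strand, and which of these reads it holds was not tested. SLCO4A1 fell by 0.83 ± 0.092.

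Around the lipid transporters, 12 of 13 genes of sterol efflux and the liver X receptor response were tested, of which 2 rose (16.7%) and 6 fell (50%), beside 20.3% and 18.9% of all genes. MYLIP, the ligase that degrades the LDL receptor, rose by 0.59 ± 0.041 and SCD, a fatty acid desaturase, by 0.07 ± 0.028. The apolipoprotein genes APOE and APOC1 fell by 0.46 ± 0.046 and by 0.66 ± 0.086. Of 20 transcription factors known to act on ABC genes, 17 were tested, of which 7 rose (41.2%) and 2 fell (11.8%). SREBF2, which drives cholesterol synthesis, rose by 0.45 ± 0.033 and YBX1 by 0.33 ± 0.033. SREBF1 fell by 0.12 ± 0.039, although the CPM ranges of the groups overlapped, and PPARD fell by 0.17 ± 0.062. The liver X receptors NR1H2 and NR1H3 did not pass (0.04 ± 0.061 and 0.07 ± 0.10), and their partner RXRA rose by 0.31 ± 0.054.

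All 14 genes of glutathione synthesis and conjugation, which supply substrates of ABCC1, were tested, of which 4 rose (28.6%) and 5 fell (35.7%). GCLM rose by 0.28 ± 0.041 and GSTP1 by 0.17 ± 0.029, whereas MGST1 fell by 0.37 ± 0.055 and GSTO1 by 0.31 ± 0.045. Among 16 mitochondrial iron, iron-sulfur and heme genes 3 rose and 3 fell (18.8% each). SLC25A37, the iron carrier that ABCB10 is known to stabilize in mouse, rose by 0.61 ± 0.029 and FECH by 0.36 ± 0.040. CIAPIN1 fell by 0.27 ± 0.053 and NFS1 by 0.19 ± 0.073.

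Of 14 peroxisomal genes 3 rose and 3 fell (21.4% each), with ACSL1 at 0.39 ± 0.053, ACOX3 at 0.49 ± 0.10, PEX16 at -0.36 ± 0.073 and ACAA1 at -0.26 ± 0.058. Beside ABCE1 and the ABCF genes, 2 of 13 genes of ribosome recycling and the GCN pathway rose (15.4%) and 8 fell (61.5%), beside 20.3% and 18.9% of all genes. EIF5, an initiation factor, fell by 0.47 ± 0.033 and GCN1, the sensor of stalled ribosomes, by 0.19 ± 0.026. The eIF2 subunit genes EIF2S2 and EIF2S3 rose by 0.27 ± 0.031 and 0.13 ± 0.026. Of the partners of the sulfonylurea receptors, KCNJ11 rose by 0.45 ± 0.13 and KCNJ8 was too low to test.

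**Figure D4:**
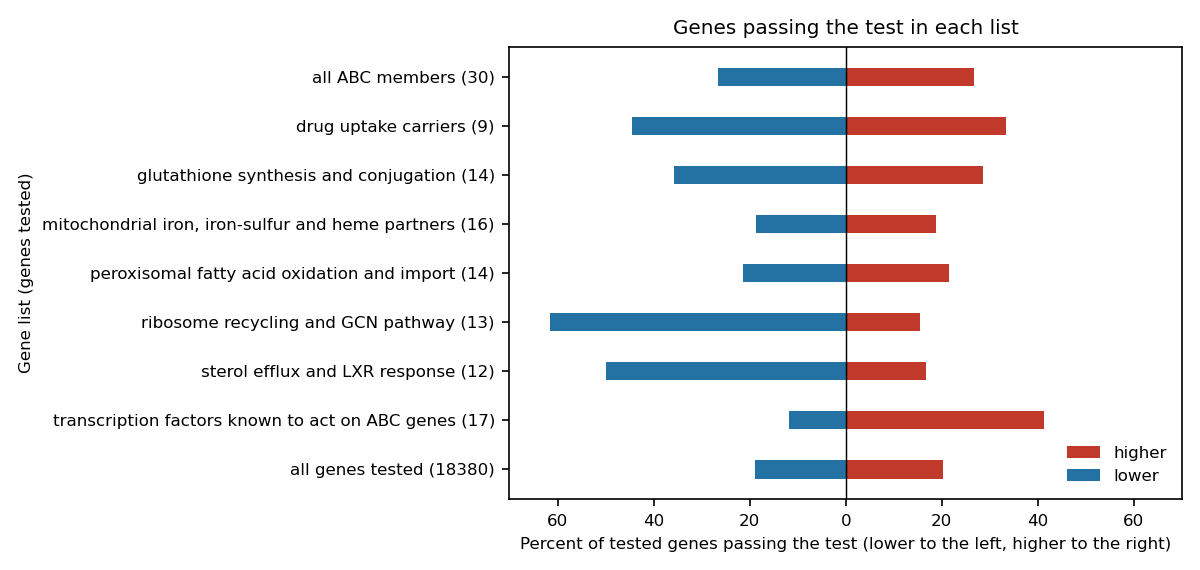
Percent of tested genes that passed the test, lower to the left and higher to the right, for the ABC genes, 7 lists of related genes and all genes tested (number tested in brackets). The ABC genes had 26.7% on each side, and the ribosome recycling and GCN list had 61.5% lower and 15.4% higher, beside 18.9% lower and 20.3% higher over all genes tested. Over the protein-coding genes tested, which are not drawn, 23.4% were lower and 24.8% higher.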

How the data were processed

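RNA of 6 K562 libraries was measured. The submitters' processing notes name STAR and the build hg38 (GRCh38), with no versions. The authors deposited whole-number counts per gene without normalization. A second deposited table of counts, without a sample name, holds 1 library with strand ignored and by strand; ignoring strand, it matches over-expression replicate 2 at all 58440 identifiers. Its counts by strand entered no test. They gave the share of reads on the opposite strand (15.1% of all stranded counts) and the own-strand reads set beside compared counts. The second table also gave the number of reads in more than 1 gene.

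Identifiers were matched without version to GENCODE 29 (58320 matched). Levels are CPM on TMM-scaled library sizes, per kb of the union of annotated exons where genes are compared. edgeR 4.0.16 in R 4.3.3 gave two-sided quasi-likelihood F-tests over all 18380 genes that passed filterByExpr, with group as the only covariate and p-values adjusted over all of them (Benjamini-Hochberg). The SE is the log2 fold change divided by the square root of F. Ratios of pooled shares carry exact 95% Poisson-based intervals, which, like floors of 3 counts, cover counting error only. The fit was tested on simulated data. Library pairs within a group differed by more than sampling noise (chi-square per degree of freedom 1.36 to 2.31), so no pair was taken for repeat deposits of 1 library.

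Alternatives were RLE and upper quartile scaling, other filters, DESeq2 1.42.0, limma-voom 3.58.1, leaving out each library and a replicate block. A GC and length offset (mgcv 1.9.3) and a test against a 1.2-fold change were added after seeing the data. The members and gene lists were chosen with earlier results of these data known. Some members are not reported here by name. Values are given for the other members, and for up to 2 higher and 2 lower genes per list by smallest p; NR1H2, NR1H3, RXRA and KCNJ8 were chosen after their values were seen.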

Additional observations from a re-analysis of the deposited data

Results flagged for a closer look

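Among the 26 ABC genes with at least 20 stranded reads in the library counted by strand, 2 had more reads opposite to the gene than on its strand, a signal that the compared counts do not use. They were ABCB9, with 55.1% (473 of the reads opposite and 385 on its own strand), and ABCC11, with 75.5% (120 opposite and 39 on its own strand). Exons of OGFOD2 and ARL6IP4 overlap ABCB9 on the opposite strand, and exons of LONP2 overlap 4.04% of the exonic length of ABCC11. The compared count of that library, which ignores strand, was 356 for ABCB9 and 7 for ABCC11, lower for both than the reads on their own strand.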

How the results depend on the processing

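The counts of 8 higher and 8 lower ABC genes were the same under RLE scaling, upper quartile scaling, both other filters and limma-voom. They were 7 and 6 with DESeq2, which called 4805 of all genes against 7217, and 8 higher and 7 to 8 lower when 1 library was left out. Against a 1.2-fold change, 4 ABC genes were higher (ABCA1, ABCA3, ABCA6 and ABCA8) and 1 lower (ABCB4), and 2328 of all genes passed. The GC and length correction gave 6 and 10 and moved the median of all genes by -0.0183 on the log2 scale. No called gene changed its direction under the alternatives run. The labels do not say whether a replicate number pairs samples. The same-numbered libraries had correlations of -0.0444, 0.00274 and -0.00917 in their deviations from the group means. These values show no shared effect of the number, but they cannot settle whether the samples are paired. A fit with the replicate block gave 8 higher and 8 lower ABC genes and 7077 calls over all genes. Depth limits the 9 tested genes under 5 CPM, where 3 were called, and the 15 genes that were not tested.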

Other observations

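ABC pseudogenes and antisense genes lie outside the 45 genes. ABCB10P4, a processed copy of ABCB10, had 233, 241 and 252 counts in over-expression libraries and 188, 176 and 198 in controls. It rose (log2 fold change 0.34 ± 0.091, edgeR adjusted p = 0.0020), while the copies ABCB10P1 and ABCB10P3 did not pass. Reads of ABCB10 and its copies can be split between them, so the small fall of ABCB10 is uncertain. ABCC13, a transcribed pseudogene, had 5, 11 and 15 counts in over-expression libraries and 3, 0 and 2 in controls and was not tested. ABCA17P fell by 0.66 ± 0.24 (edgeR adjusted p = 0.023), with 79.2% of its reads on the opposite strand.

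Of the 3 ABC genes named otherwise, TAP1, a subunit of the peptide transporter that feeds MHC class I, fell by 0.52 ± 0.11 (edgeR adjusted p = 0.00012). TAP2, the other subunit, did not pass (-0.14 ± 0.071, adjusted p = 0.11 in edgeR), and CFTR had no count.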
